A study of Mus musculus with 10 samples.

Results

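A set of 10 heart muscle genes was followed in the RNA of mouse lung: Myh6, Myl7, Myl4, Mybpc3, Actc1, Tnnt2, Tnni3, Sln, Pln and Nppa. The members were all probe sets of the array whose platform annotation gave exactly 1 gene symbol, one of these, which came to 17 of the 45037 probe sets other than controls. The smoke group held 6 C57BL/6J mice aged 2 weeks that had shared a smoke chamber with their mother from day 1 of life, for 1 hour a day over 7 days and for 2 hours a day over 7 more, with particulate matter at a mean of 90 mg in each cubic metre of chamber air. Controls were 4 C57BL/6J mice of the same age that had breathed filtered air apart from the exposed mice. Lung RNA of each mouse was hybridised to 1 Affymetrix Mouse 430 2.0 array. The labels leave sex unknown and name no litter, array batch or way in which the lungs were trimmed from the heart and great vessels. The p-values therefore measure only how these arrays differ from one another. The levels were read as a measure of heart muscle carried in the lung sample.

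The lung of a mouse contains heart muscle of its own. The walls of its large pulmonary veins are sheathed by cardiac muscle that continues from the left atrium, so lung RNA can hold transcripts of cardiac sarcomeres. Cardiac muscle contracts when calcium binds troponin on the thin filament and lets myosin heads of the thick filament pull on actin. Calcium is then pumped back into the sarcoplasmic reticulum by the pump SERCA2, which phospholamban and sarcolipin restrain. Atrial and pulmonary vein muscle is known for the light chains Myl7 and Myl4, sarcolipin and the hormone encoded by Nppa, whereas the light chain Myl2 marks ventricle. Several of the genes are not exclusive to heart: Sln is also used in skeletal muscle, Actc1, Tnnt2 and Myl4 also in developing skeletal muscle, and Pln in smooth and slow skeletal muscle.

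Promoter sequence was available for 9 of the 10 genes, and the 250 bases before the start site were searched for short elements that cardiac and muscle regulators are known to recognise. The searches covered both strands. They used TGATAA, which factors of the GATA family bind, a second word for the same family, AGATAA, and the sequence TATAAA for the box near the start of transcription. The MEF2 site and the CArG box of serum response factor were searched as well. No match printed here overlaps another. The 4 promoters shown are those of an atrial light chain, the atrial hormone, a thick filament protein and cardiac actin. Between them they hold 7 of the matches found. The promoters of Pln, with 3 matches, and Tnnt2, with 1, are not shown. The printed promoters are RefSeq sequences of build GRCm38.p6, written 5′ to 3′ on the strand of the gene, with the motif matches in capitals.
Myl7: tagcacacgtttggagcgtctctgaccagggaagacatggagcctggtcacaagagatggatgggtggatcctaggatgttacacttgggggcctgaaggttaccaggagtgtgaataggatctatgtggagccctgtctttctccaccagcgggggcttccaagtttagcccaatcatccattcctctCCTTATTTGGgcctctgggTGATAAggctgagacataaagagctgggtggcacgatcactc
Nppa: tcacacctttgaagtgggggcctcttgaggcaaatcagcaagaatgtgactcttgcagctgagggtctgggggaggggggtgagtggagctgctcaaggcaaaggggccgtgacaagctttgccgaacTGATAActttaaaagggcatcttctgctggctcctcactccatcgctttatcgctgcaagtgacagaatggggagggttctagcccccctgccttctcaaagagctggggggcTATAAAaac
Mybpc3: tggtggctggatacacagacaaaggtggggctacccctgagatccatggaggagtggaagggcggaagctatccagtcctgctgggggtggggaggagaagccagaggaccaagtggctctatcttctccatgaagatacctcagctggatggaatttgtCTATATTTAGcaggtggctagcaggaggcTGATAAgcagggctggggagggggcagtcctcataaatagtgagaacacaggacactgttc
Actc1: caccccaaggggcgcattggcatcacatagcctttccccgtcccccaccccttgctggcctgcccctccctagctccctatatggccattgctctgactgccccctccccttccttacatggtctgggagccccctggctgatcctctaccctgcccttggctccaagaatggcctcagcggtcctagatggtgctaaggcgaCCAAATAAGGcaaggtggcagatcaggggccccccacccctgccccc
These lie at chr11:5898783-5899032 on the minus strand for Myl7, chr4:148000472-148000721 on the plus strand for Nppa, chr2:91117894-91118143 on the plus strand for Mybpc3 and chr2:114052876-114053125 on the minus strand for Actc1. In Myl7 the capitals mark a CArG box at positions -61 to -52 from the start site and TGATAA at -42 to -37. In Nppa they mark TGATAA at -122 to -117 and TATAAA at -9 to -4, in Mybpc3 a MEF2 site at -90 to -81 and TGATAA at -61 to -56, and in Actc1 a CArG box at -47 to -38. TGATAA stood in the promoters of 4 of the 9 genes, Pln at -82 to -77 being the fourth, against 7.94% of 32851 promoters of the same length. The CArG box stood in 2 of 9 against 1.47% of all promoters, and the MEF2 site in 1 of 9 against 2.92%. AGATAA was found in Tnnt2 and Pln, 2 of 9 against 9.99%, and TATAAA in Nppa and Pln, 2 of 9 against 12.4%. Tnnt2 had 2 promoters, and only 1 of them held the match. The counts out of 9 are of genes and the percentages are of promoters, so the units differ. The windows of Myh6, Myl4 and Tnni3 held none of the motifs. A match is a description of these letters only.

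Some arrays stood apart before any cardiac gene was considered. The ratio of signal at the 3′ end to signal at the 5′ end of actin, which grows as RNA is degraded or copied short, was 31.6 and 29.4 on smoke arrays 1 and 2, 9.26 and 10.3 on smoke arrays 3 and 4 and 2.18 and 2.98 on smoke arrays 5 and 6, against 9.70, 10.4, 9.28 and 3.96 on control arrays 1 to 4. For Gapdh the same ratio was 4.76, 9.16, 5.94, 3.68, 1.40 and 2.13 on smoke arrays 1 to 6. On control arrays 1 to 4 it was 5.27, 5.89, 5.08 and 4.82. Smoke arrays 5 and 6 were lowest by both ratios, while smoke array 1 was highest by actin only. Xist, which is transcribed from the inactive X chromosome of females, had a log2 intensity of 14.09 and 14.01 on smoke arrays 5 and 6 and 8.80 to 9.38 on the other smoke arrays, against 13.96 and 13.98 on control arrays 2 and 4 and 8.25 and 9.16 on control arrays 1 and 3. By this gene smoke arrays 5 and 6 and control arrays 2 and 4 were from females. Smoke array 5 and control array 1 also carried transcripts of skeletal muscle and of stratified epithelium of the oesophagus type. The summed intensity of 23 skeletal muscle markers was 41857 on smoke array 5 and 1370 to 2254 on the other smoke arrays, against 16875 on control array 1 and 1750 to 2088 on the other controls. The sum of 5 oesophagus markers was 16290 on smoke array 5 and 476 to 766 on the other smoke arrays, against 13424 on control array 1 and 396 to 486 on the other controls. The sum of 9 lung epithelium markers was 80373 to 115992 over the smoke arrays, against 93156 to 110928 over the controls, and the tissue was lung on all 10 arrays by these genes.

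No cardiac muscle gene differed between smoke-exposed and control lungs past the threshold. Of the 10 genes, 0 passed an adjusted p of 0.05 (limma over all tested probe sets), beside 0.725% of the 13382 genes tested (0 higher beside 0.0224% and 0 lower beside 0.702%), and 1, Myh6, had an unadjusted p under 0.05, beside 10.2% of all genes. The groups overlapped for all 10 genes, while 4.09% of all genes had groups that did not overlap. The log2 difference, smoke minus control, was below 0 for 6 genes and above 0 for 4, with a median of -0.15 beside a median of 0.06 over all genes tested. The spread between arrays was wide for most of them. The SD over the 10 arrays had a median of 0.79 on the log2 scale for the 10 genes against 0.42 for all genes, and 8 of the 10 lay above the median gene. In RNA from whole lung, fewer cardiac muscle cells and less RNA per cell cannot be told apart.

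**Figure D1:**
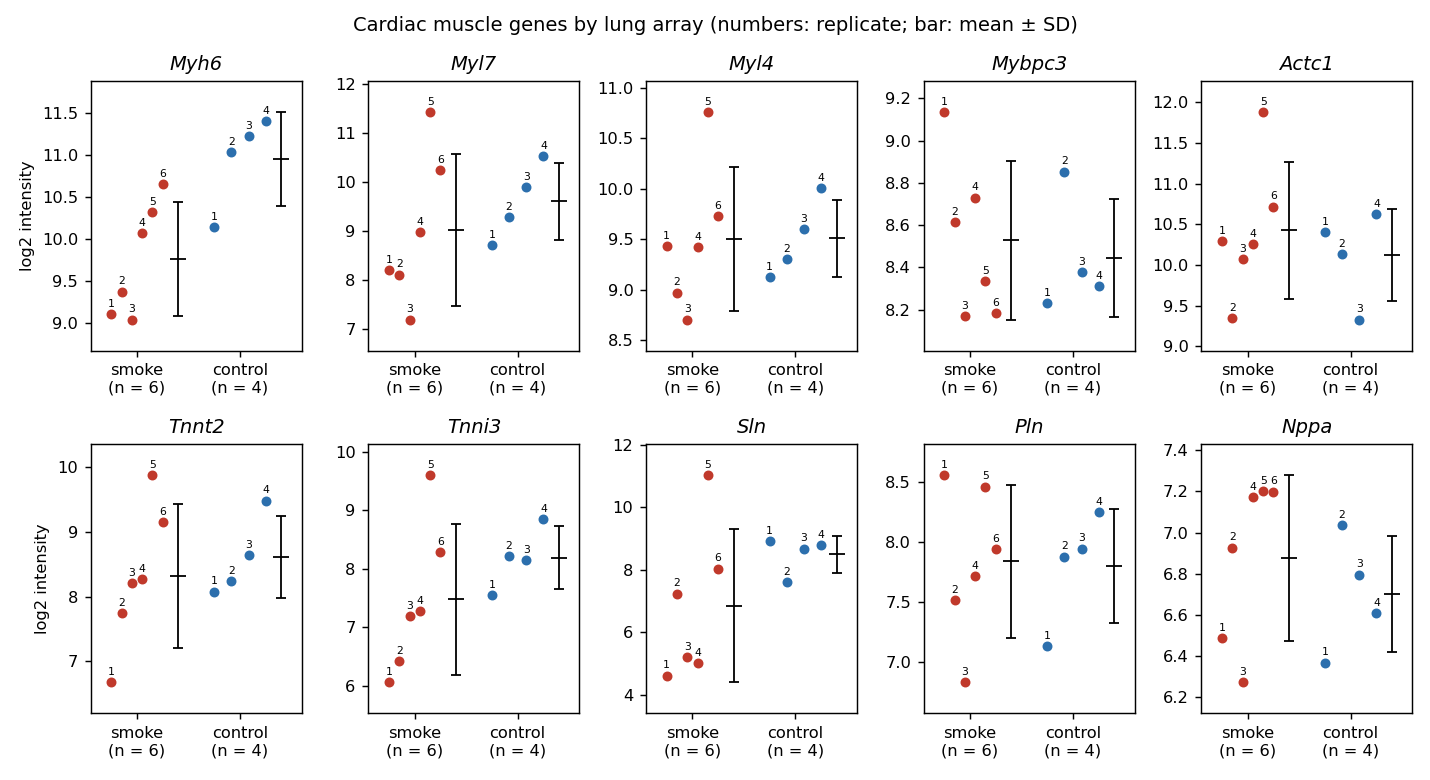
Log2 intensity (vertical axes, each with its own range) of the probe set that stands for each of the 10 cardiac muscle genes, by array, in smoke (red, n = 6) and control (blue, n = 4) lungs, with the replicate number above each point and the group mean ± SD beside the points. Smoke array 5 was the highest of the 10 arrays for 7 genes and smoke array 3 the lowest for 6, and the groups overlap in every panel.

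Genes of the thick filament came first. Myh6 encodes the alpha myosin heavy chain, the motor of the mouse heart. Its log2 intensity had a lowest, median and highest value of 9.05, 9.73 and 10.66 in smoke lungs, against 10.15, 11.04, 11.23 and 11.41 in control lungs. Smoke arrays 1 to 4 lay below every control, and smoke arrays 5 and 6 lay between the lowest control, array 1, and the other controls. The means were 9.77 ± 0.68 (SD, n = 6) in smoke lungs and 10.96 ± 0.56 (SD, n = 4) in control lungs, a log2 difference of -1.19 ± 0.36 (SE; 95% interval -1.98 to -0.40; limma, unadjusted p = 0.00677, adjusted p = 0.283). The interval of this gene alone leaves out 0, but the adjusted p over all probe sets did not pass. It passed without smoke arrays 5 and 6, at -1.55 (adjusted p = 0.0244), and when the log2 actin ratio entered the model as a covariate, at -1.11 (adjusted p = 0.0473). In those settings 5.63% and 2.77% of all genes passed. Smoke arrays 5 and 6 were the smoke arrays with high Xist and with the lowest actin ratios, and the part of either was not tested. The actin ratio was highest on smoke arrays 1 and 2, which were among the 4 that lay below every control. Smoke arrays 3 and 4, with ratios of 9.26 and 10.3 beside 9.28 to 10.4 on control arrays 1 to 3, lay there as well. Smoke arrays 1 to 4 all had low Xist, as did control arrays 1 and 3. With the log2 Xist level as a covariate Myh6 was at -1.09 and did not pass (limma, adjusted p = 0.152). What part the actin ratio or sex had in the Myh6 levels was not tested. The second Myh6 probe set was below the filter on dim probe sets, at the floor on 6 arrays, with a difference of -0.83 (exact two-sided permutation p = 0.133).

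Myl7, the regulatory light chain of atrial myosin, ran over a wide range. Its log2 intensity was 7.19, 8.59 and 11.43 (lowest, median and highest) in smoke lungs, against 8.71, 9.29, 9.90 and 10.52 in control lungs. Smoke arrays 1, 2 and 3 lay below every control and smoke array 5 above every control. The difference was -0.58 ± 0.72 (95% interval -2.14 to 0.98; limma, adjusted p = 0.803). Over single omissions it ran from -1.05 without smoke array 5 to -0.21 without smoke array 3, and it was -0.27 without control array 4.

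Myl4, the essential light chain of the atrium, had values of 8.70, 9.43 and 10.76 in smoke lungs, against 9.13, 9.30, 9.60 and 10.01 in control lungs. The means lay close together, at 9.50 ± 0.72 (SD, n = 6) in smoke lungs and 9.51 ± 0.39 (SD, n = 4) in control lungs, with a difference of -0.0059 ± 0.36 (95% interval -0.78 to 0.77; limma, adjusted p = 0.998). Smoke array 5 was the highest array and smoke arrays 2 and 3 lay below all controls. A second Myl4 probe set behaved differently over the arrays (r = -0.38 with the first, n = 10) and had a difference of 0.54 ± 0.29 (limma, adjusted p = 0.548).

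Mybpc3, the myosin-binding protein of the cardiac thick filament, kept to a narrow range. It had 8.17, 8.47 and 9.13 in smoke lungs, against 8.23, 8.85, 8.38 and 8.31 in control arrays 1 to 4. Its highest array was smoke array 1, on which Tnnt2, Tnni3 and Sln were at their lowest. The difference was 0.08 ± 0.24 (95% interval -0.44 to 0.60; limma, adjusted p = 0.920).

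On the thin filament, Actc1 encodes cardiac alpha actin. Its log2 intensity was 9.34, 10.28 and 11.88 in smoke lungs, against 10.40, 10.13, 9.33 and 10.62 in control arrays 1 to 4. Only smoke arrays 5 and 6 lay above every control, and none lay below. The difference was 0.31 ± 0.42 (95% interval -0.61 to 1.22; limma, adjusted p = 0.825). Over single omissions it ran from 0.016 without smoke array 5 to 0.52 without smoke array 2, and it was 0.042 without control array 3.

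Tnnt2, cardiac troponin T, ties the troponin complex to tropomyosin. It had 6.67, 8.24 and 9.88 in smoke lungs, against 8.08, 8.24, 8.64 and 9.48 in control lungs. The lowest values were those of smoke arrays 1 and 2 and the highest that of smoke array 5. The difference was -0.29 ± 0.53 (95% interval -1.45 to 0.87; limma, adjusted p = 0.874). A second tested probe set of Tnnt2 followed the first over the arrays (r = 0.81, n = 10), with a difference of -0.60 ± 0.54 (limma, adjusted p = 0.729), and another, below the filter, had a difference of 0.12 (exact two-sided permutation p = 0.852).

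Tnni3, cardiac troponin I, is the subunit that blocks the contact of actin and myosin until calcium binds, and it takes over from the slow skeletal form in the heart after birth. It had 6.06, 7.24 and 9.61 in smoke lungs, against 7.55, 8.21, 8.15 and 8.85 in control arrays 1 to 4. Smoke arrays 1 to 4 lay below every control, as for Myh6, and smoke array 5 lay above every control. The difference was -0.71 ± 0.59 (95% interval -2.01 to 0.58; limma, adjusted p = 0.707). Over single omissions it ran from -1.13 without smoke array 5 to -0.44 without smoke array 1, and it was -0.11 without smoke arrays 1 and 2 together.

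Of the regulators of the calcium pump, sarcolipin (Sln) varied most. Its log2 intensity was 4.61, 7.24, 5.20, 5.02, 11.04 and 8.04 on smoke arrays 1 to 6, against 8.91, 7.61, 8.68 and 8.79 on control arrays 1 to 4. Thus 4 smoke arrays lay below every control, 3 of them by more than 2 units on the log2 scale, while smoke array 5 lay above every control by more than 2 units. On those 3, smoke arrays 1, 3 and 4, Sln was dim. The deposited intensities were 37.7, 35.9 and 41.7, beside array medians of 207.7, 153.8 and 192.4. The means were 6.86 ± 2.46 (SD, n = 6) in smoke lungs and 8.50 ± 0.60 (SD, n = 4) in control lungs, with a difference of -1.64 ± 1.06 (95% interval -3.96 to 0.68; limma, adjusted p = 0.620). A floor at the 25th percentile in place of the 10th brought the difference to -1.27 (limma, adjusted p = 0.652). The SD of Sln over the 10 arrays, 2.05, was larger than that of 99.9% of the genes tested, and it rests in part on those dim values. Without smoke arrays 5 and 6 the difference was -2.92 and passed (limma, adjusted p = 0.0178). Smoke array 5 and control array 1, the highest array of each group for Sln, were also the 2 arrays high in skeletal muscle markers. Their part in the Sln levels was not tested. A second Sln probe set was below the filter, with a difference of -0.35 (exact two-sided permutation p = 0.638).

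Phospholamban (Pln) restrains the same pump until it is phosphorylated. Its log2 intensity was 6.83, 7.83 and 8.56 in smoke lungs, against 7.14, 7.88, 7.95 and 8.25 in control lungs. The groups had nearly equal means and the difference was 0.04 ± 0.35 (95% interval -0.73 to 0.80; limma, adjusted p = 0.982). Its other tested probe sets had differences of 0.36 ± 0.27 and -0.02 ± 0.59 (limma, adjusted p = 0.666 and 0.994). The 3 probe sets of Pln did not follow each other closely over the arrays, with r of 0.17, 0.47 and -0.02 (n = 10), so the Pln level depends on the probe set read.

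Nppa encodes atrial natriuretic peptide, the hormone that atrial muscle secretes when stretched. It had 6.27, 7.05 and 7.20 in smoke lungs, against 6.37, 7.03, 6.80 and 6.61 in control arrays 1 to 4. The groups overlapped widely, and the difference was 0.17 ± 0.28 (95% interval -0.45 to 0.80; limma, adjusted p = 0.858). The SD of Nppa over the arrays was 0.35, and 36.0% of the genes tested had a lower SD.

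**Figure D2:**
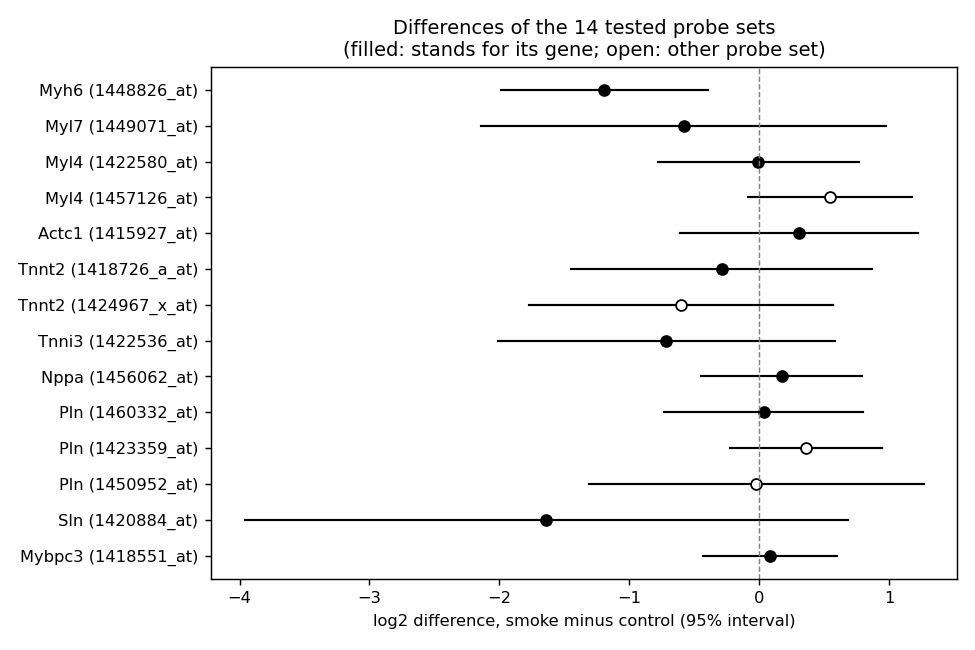
Log2 difference, smoke minus control, with its 95% interval from limma (horizontal axis) for the 14 tested probe sets of the cardiac muscle genes, filled where the probe set stands for its gene and open for further probe sets of Myl4, Tnnt2 and Pln. The interval of Myh6 lies below 0, from -1.98 to -0.40, and all other intervals include 0, that of Sln being the widest.

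Some of the cardiac genes varied widely over the arrays and others stayed close to their mean. After Sln, the SDs over the 10 arrays were 1.28 for Myl7, 1.08 for Tnni3, 0.92 for Tnnt2, 0.86 for Myh6 and 0.72 for Actc1, larger than those of 98.4%, 96.7%, 93.8%, 92.3% and 86.5% of genes. Myl4 and Pln followed at 0.58 and 0.55, and Mybpc3 had the smallest, 0.33, with 29.7% of genes lower. The mean of the 10 genes, each centred on its own mean, was -0.76, -0.59, -0.93, -0.32, 1.28 and 0.40 on smoke arrays 1 to 6, against -0.15, 0.14, 0.25 and 0.67 on control arrays 1 to 4. Smoke lungs thus held both the lowest and the highest values, and the controls lay between them. Control array 4 was the highest control for 7 of the 10 genes and control array 1 the lowest control for 8, with Sln the gene for which control array 1 was the highest.

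The relation of Myl7 to each of the other 9 genes was computed to see how far the levels varied together from mouse to mouse. Over the 10 arrays Myl7 was most closely related to Myl4 (Pearson r = 0.93, adjusted permutation p = 0.000450; Spearman rho = 0.92, adjusted permutation p = 0.00216). The next were Tnni3 (r = 0.88, adjusted permutation p = 0.00396; rho = 0.93, adjusted permutation p = 0.00216) and Tnnt2 (r = 0.82, adjusted permutation p = 0.0111; rho = 0.90, adjusted permutation p = 0.00222). Sln and Myh6 had r of 0.79 and 0.76 (adjusted permutation p = 0.0157 and 0.0229) and rho of 0.68 and 0.82 (adjusted permutation p = 0.0600 and 0.0132). Thus 5 of the 9 relations passed by Pearson's r after adjustment over the 9. The share of all genes related to Myl7 is not given here, so the count describes these genes only. Those with Pln, Actc1 and Nppa did not, at r of 0.65, 0.62 and 0.60 and rho of 0.62, 0.61 and 0.64 (adjusted permutation p = 0.0628, 0.0692 and 0.0802 for r and 0.0772 for each rho). Mybpc3 had r = -0.27 and rho = -0.09 with Myl7 and did not pass (adjusted permutation p = 0.451 and 0.811).

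The arrays formed no separate clusters of Myl7. Leaving out smoke arrays 3 and 5, the 2 farthest from the median of Myl7, 4 relations passed, with r of 0.93 for Tnni3, 0.91 for Tnnt2, 0.90 for Myh6 and 0.86 for Myl4 (adjusted exact permutation p = 0.00536, 0.00536, 0.0121 and 0.0121). Sln no longer passed, at r = 0.58 (adjusted exact permutation p = 0.213), so its call by Pearson's r rests on those arrays, and by rank it did not pass over all 10. Within the 6 smoke arrays alone, Myl4 passed by Pearson's r (r = 0.95, adjusted exact permutation p = 0.0250). By rank it did not (rho = 0.94, adjusted exact permutation p = 0.0750), and 0 relations passed by rank there. Myh6, Tnni3, Actc1 and Sln had r of 0.84 to 0.88 without passing (adjusted exact permutation p of 0.0531 to 0.0650). The 4 control arrays were too few for a value of their own. Without smoke array 5 and control array 1, the arrays with skeletal muscle and oesophagus transcripts, 2 relations passed by Pearson's r. These were Myl4 and Myh6, at r = 0.92 each (adjusted exact permutation p = 0.00871 and 0.0128). Tnni3 stood at 0.81 and Tnnt2 at 0.73 (adjusted exact permutation p = 0.0515 and 0.0654). By rank 4 relations passed in this setting, Tnni3 and Tnnt2 among them, at rho = 0.88 each (adjusted exact permutation p = 0.0163 for each).

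**Figure D3:**
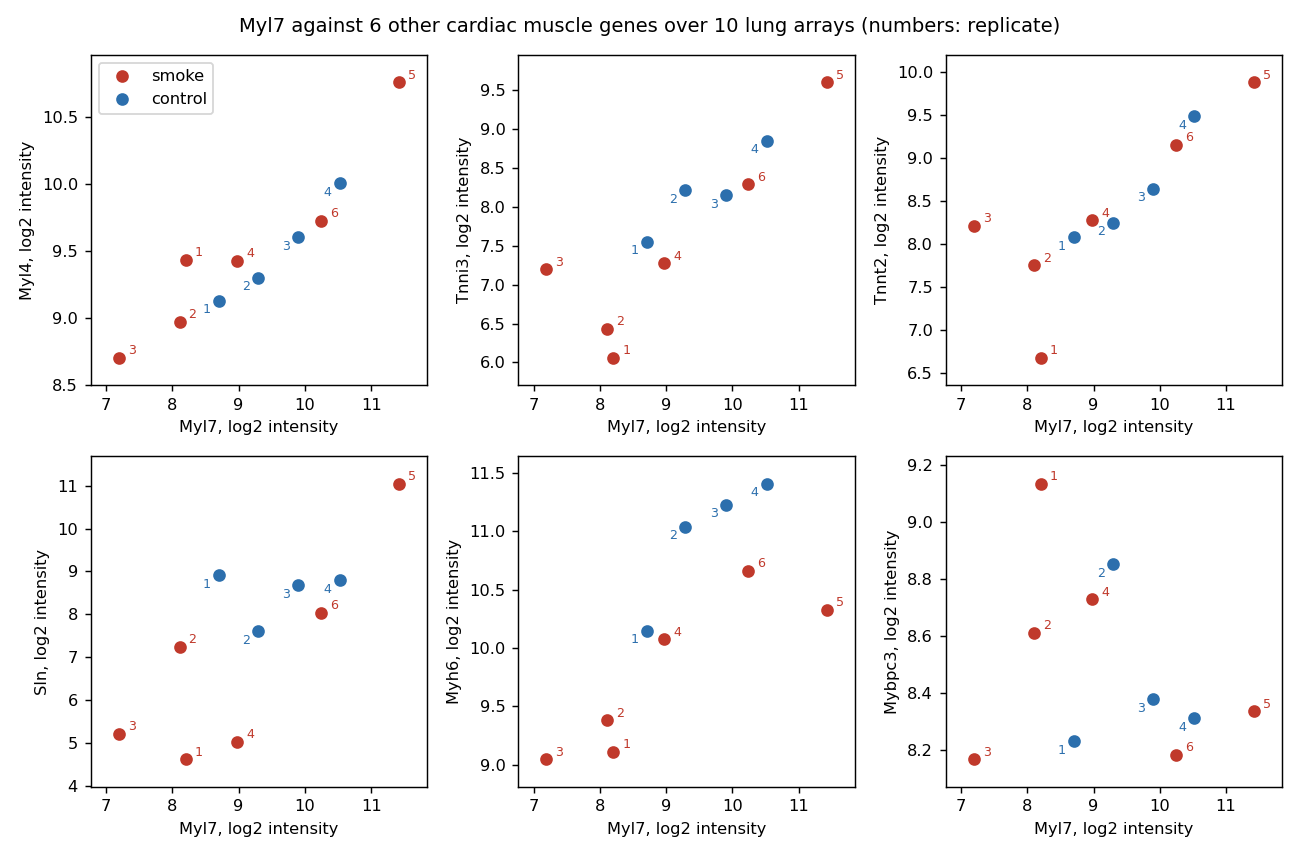
Log2 intensity of 6 cardiac muscle genes (vertical axes) against that of Myl7 (horizontal axes) over 10 lung arrays, smoke in red and control in blue, with replicate numbers. Myl4, Tnni3 and Tnnt2 lie along a rising line with r of 0.93, 0.88 and 0.82, and Mybpc3 does not follow Myl7 (r = -0.27).

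Over all 45 pairs of the 10 genes the median r was 0.51, and 13 pairs had an r over 0.7. No share of pairs over all genes is set beside that count. Among Myl7, Myl4, Tnnt2, Tnni3 and Sln, 9 of the 10 pairs were over 0.7, and the range was 0.67 to 0.94. These genes were set side by side after their values were seen, so the range is a description. Mybpc3 had r of -0.68 to 0.44 with the other 9 genes. Against the mean of the other 9 genes, r was highest for Myl7 (0.97), Tnni3 (0.91) and Myl4 (0.88), lower for Tnnt2 (0.83), Sln (0.75) and Myh6 (0.68), and 0.49 for Pln, with -0.40 for Mybpc3 (n = 10 arrays, described without a test).

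The actin ratio, 1 of the measures of RNA quality here, was related to some of the same genes. The share of all genes related to it is not given here, so the relations below are not read as particular to these genes. Over the 10 arrays the log2 actin ratio was related to the level of Tnnt2 (r = -0.94, adjusted permutation p = 0.00110; rho = -0.85, adjusted permutation p = 0.0315) and Tnni3 (r = -0.92, adjusted permutation p = 0.00230; rho = -0.79, adjusted permutation p = 0.0450), in a family of 10 relations. Myl7, Actc1 and Myl4 passed by Pearson's r, at -0.79, -0.73 and -0.71 (adjusted permutation p = 0.0229, 0.0382 and 0.0394), but not by rank, with rho of -0.67, -0.56 and -0.58 (adjusted permutation p = 0.0808, 0.137 and 0.137). Sln had r = -0.67 and rho = -0.67 (adjusted permutation p = 0.0528 and 0.0808), and Mybpc3 had the opposite sign at r = 0.67 and rho = 0.75 (adjusted permutation p = 0.0528 and 0.0584). Myh6, Nppa and Pln had r of -0.58, -0.38 and -0.21 and rho of -0.42, -0.31 and -0.14 (adjusted permutation p of 0.105, 0.305 and 0.564 for r and 0.293, 0.430 and 0.708 for rho).

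Without smoke arrays 1 and 5, the 2 farthest from the median of the ratio, Tnnt2 still passed (r = -0.90, adjusted exact permutation p = 0.0384), and Tnni3, at r = -0.83, did not (adjusted exact permutation p = 0.0728). Within the 6 smoke arrays Tnnt2 and Tnni3 both passed, at r of -0.95 and -0.96 (adjusted exact permutation p = 0.0278 for each). After each gene was regressed on the log2 actin ratio, 2 of the 9 relations to Myl7 passed, with Myl4 at r = 0.86 and Pln at r = 0.82 (adjusted permutation p = 0.00405 and 0.00688), while Tnni3 stood at 0.62 and Tnnt2 at 0.35 (adjusted permutation p = 0.0936 and 0.371). Mybpc3 stood at 0.58 in the same residuals, opposite in sign to its r of -0.27 before (adjusted permutation p = 0.0936). The arrays with the lowest actin ratios, smoke 5, smoke 6 and control 4, held the highest values of Myl7, Tnnt2 and Tnni3. No relation to the Gapdh ratio was computed, and the part that RNA quality played in the levels was not tested.

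**Figure D4:**
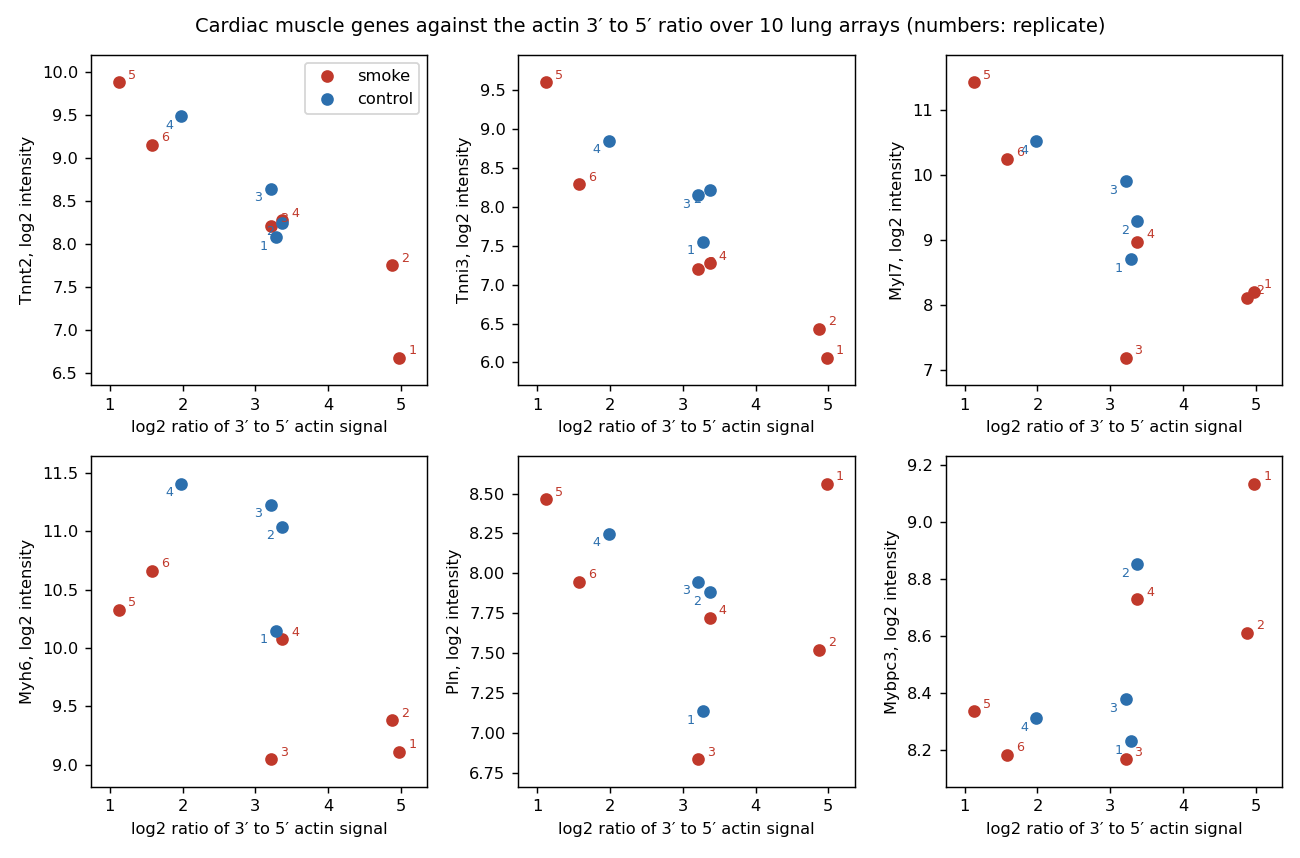
Log2 intensity of 6 cardiac muscle genes (vertical axes) against the log2 ratio of 3′ to 5′ actin signal (horizontal axes) over 10 lung arrays, smoke in red and control in blue, with replicate numbers. Tnnt2 and Tnni3 decline along the axis (r = -0.94 and -0.92), Myh6 and Pln are scattered (r = -0.58 and -0.21), and Mybpc3 slopes the other way (r = 0.67).

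Other genes of heart muscle, taken from lists of the pathway, were read in the same way. Of 12 further sarcomere genes tested, 0 passed (limma), 0 had an unadjusted p under 0.05, and 11 had a difference below 0, with a median of -0.29. Their most abundant members, by the rule of the highest mean signal, were Nebl, a nebulin relative of the Z disc, at -0.12 ± 0.29, Tpm1, the tropomyosin that troponin sits on, at -0.23 ± 0.42, and Tcap, which caps titin, at -0.11 ± 0.27 (limma, adjusted p = 0.904, 0.872 and 0.907). The summed intensity of the sarcomere list, genes below the filter included, was 21561 on smoke array 5 and 4837 to 13224 on the other smoke arrays. Control array 1, high in skeletal muscle markers, had 12173, against 9745 to 10374 on the other controls. It was the highest control here but the lowest for the sum of the 10 cardiac genes. The part of skeletal muscle in the sarcomere list was not tested. Of 8 genes of calcium handling and excitation, 0 passed and 1, Jph2, had an unadjusted p under 0.05, with a median of 0.20. Atp2a2, which encodes the pump SERCA2, was at 0.23 ± 0.15, Gja1, a connexin of gap junctions, at 0.28 ± 0.20, and Jph2, a junctophilin that holds the membrane close to the reticulum, at 0.69 ± 0.29 (limma, adjusted p = 0.615, 0.651 and 0.461). All 3 are also expressed outside heart muscle.

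Of 8 metabolic genes of oxidative muscle, 0 passed and 1, Art1, had an unadjusted p under 0.05, with a median of -0.09. The most abundant were Cox6a2 and Fabp3, a muscle subunit of cytochrome oxidase and the fatty acid binding protein of heart, at 0.32 ± 0.44 and 0.72 ± 0.33, and the muscle enolase Eno3 at 0.16 ± 0.37 (limma, adjusted p = 0.827, 0.4998 and 0.904). Of 7 genes of cardiac transcription, 0 passed and 1, Ankrd1, had an unadjusted p under 0.05, with a median of -0.12. Mef2c, Tbx5 and Tbx20, factors of heart development, were at 0.20 ± 0.21, -0.46 ± 0.34 and -0.12 ± 0.34 (limma, adjusted p = 0.770, 0.668 and 0.918).

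Markers that separate atrium from ventricle were read next. Of the atrial and pulmonary vein markers outside the 10 genes, 6 were tested and 0 passed (limma), and 1, Nr2f2, had an unadjusted p under 0.05. Dkk3, a secreted protein, was at 0.34 ± 0.20, with 5 of 6 smoke arrays above every control, Stard10, a lipid transfer protein, at 0.13 ± 0.21 and Nr2f1, a nuclear receptor, at 0.19 ± 0.21 (limma, adjusted p = 0.592, 0.855 and 0.792). Nr2f2, a nuclear receptor of atrial muscle that veins and other tissues also express, was at 0.56 ± 0.21, with 5 of 6 smoke arrays above every control (limma, adjusted p = 0.410). The channel subunit Kcnj3 and the hormone gene Nppb were at 0.21 ± 0.32 and -0.01 ± 0.23 (limma, adjusted p = 0.849 and 0.991). Below the filter, the connexin gene Gja5 lay at the floor on all 10 arrays and Bmp10, a growth factor of the right atrium, on 7.

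Among ventricular markers, 3 of 6 were tested, 0 passed (limma) and 1, Mycn, had an unadjusted p under 0.05. Mycn, a growth regulator that is not confined to heart, was at 1.28 ± 0.37, with 5 of 6 smoke arrays above every control (limma, unadjusted p = 0.00529, adjusted p = 0.259). Myh7, the beta heavy chain of the fetal ventricle and of slow skeletal muscle, was at 0.16 ± 0.28, and Hey2, a transcription factor of the ventricle, at -0.08 ± 0.24 (limma, adjusted p = 0.867 and 0.925). Myl2, the ventricular light chain, was below the filter and at the floor on 3 arrays, and its highest value, 8.47, was on smoke array 5. Irx4, a ventricular transcription factor, was also below the filter. The atrial list also held Myl1, in fact a light chain of fast skeletal muscle, at 12.85 on smoke array 5 and 9.91 on control array 1, so no sum over that list is used.

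Over the other 17 lists, cardiac ones included, 99 genes outside the 10 were tested; 0 passed (limma) and 7 had an unadjusted p under 0.05, or 7.07% beside 10.2% of all genes. The medians of these lists ran from -0.57 for mesothelium and epicardium, the lining over lung and heart, to 0.68 for the 1 tested gene of the thyroid list. Smooth muscle markers, which include the muscle of airways and vessels, had a median of 0.36 over 10 genes, with 8 above 0 and 2 below. Their summed intensity was 16746 to 19613 in smoke lungs, above all control lungs at 10082 to 16507. The brightest genes, Acta2 and Mylk, weigh most in that sum. Acta2, the smooth muscle actin, was at 0.53 and did not pass (limma, adjusted p = 0.397). For it all 6 smoke arrays lay above every control, beside 4.09% of all genes whose groups did not overlap. Mylk was at 0.03 ± 0.14 (limma, adjusted p = 0.959). The genes below 0 were Myh11 at -0.58 ± 0.60 and Des at -0.04 ± 0.44 (limma, adjusted p = 0.767 and 0.984). For Myh11, 4 smoke arrays lay below every control and 2 above.

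**Figure D5:**
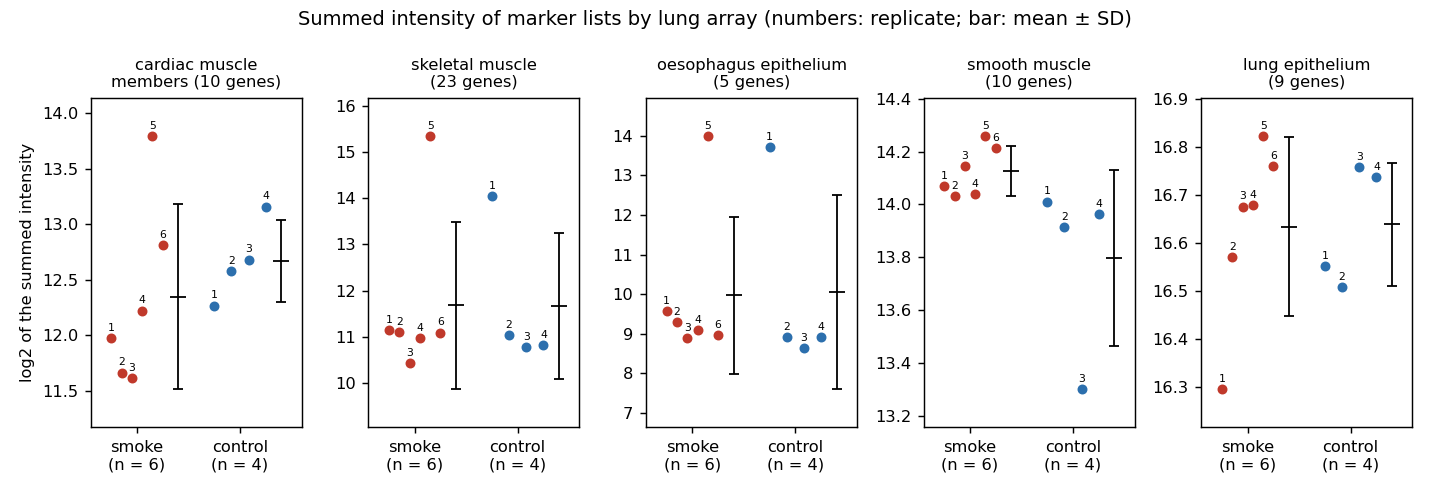
Log2 of the summed intensity (vertical axes, each with its own range) of 5 marker lists by array in smoke (red, n = 6) and control (blue, n = 4) lungs, with replicate numbers and the group mean ± SD. Smoke array 5 is the highest smoke array in the cardiac, skeletal muscle and oesophagus lists, whereas control array 1, high in the skeletal muscle and oesophagus lists, is the lowest control in the cardiac list.

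Skeletal muscle markers separated arrays rather than groups. Their 8 tested genes had a median of -0.02 and 0 passed. Acta1 and Tnnc2, the actin and troponin C of fast skeletal muscle, were each at the floor on 7 arrays and reached 13.42 and 12.78 on smoke array 5, against 11.25 and 10.63 on control array 1; these and Myl1 were named after their values were seen. The summed intensity of the 10 cardiac genes was 14196 on smoke array 5 and 3127 to 7191 on the other smoke arrays, against 4926 on control array 1 and 6107 to 9134 on the other controls. The part of skeletal muscle in the cardiac sums was not tested. Without both arrays, 0 of the 10 cardiac genes passed (limma), and the median difference was -0.57 beside 0.06 over all genes.

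Genes whose pattern over the 10 arrays was most like the mean of the 10 cardiac genes were picked by Pearson's r. The highest were Aig1 (0.97), Rnf167 and Tnnc1 (0.94 each), H2-Eb1 (0.93), Mb and Cyp2b10 (0.92 each), and Fxyd3, Ndufa9, Ptpn22 and Stard3nl (0.91 each). Tnnc1 encodes the troponin C of cardiac and slow muscle, and Mb encodes myoglobin, the oxygen store of red muscle. The same 10 genes had r of -0.93 to -0.70 with the log2 actin ratio. The cardiac mean they were picked by was itself highest on the arrays with the lowest actin ratios. That range therefore follows from the choice of genes and is no separate result. An r over 0.7 was reached by 7.37% of the 13372 other genes tested, by 8 of the 12 further sarcomere genes, by 3 of 8 metabolic genes and by 1 of 8 calcium genes. It was reached by 2 of 8 skeletal muscle genes, by 0 of 10 smooth muscle genes, by 0 of 7 genes of cardiac transcription and by 1 of 9 lung epithelium genes. Of the atrial and pulmonary vein markers outside the 10 genes 0 of 6 reached it, with a median r of -0.18, and of the ventricular markers 0 of 3, with a median r of -0.32. These shares describe arrays that differ in their actin ratio and in skeletal muscle transcripts, and they carry no test.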

How the data were processed

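Total RNA of 10 lungs was extracted with Trizol and turned into labelled cRNA for 1 array per mouse, per the labels' protocols. The authors deposited 1 linear intensity per probe set and array; the program that summarised the probes is not given in the sources used here. With the extremes trimmed by 2% at each end, mean intensity was 500.0 on every array. Detection calls were not used and the background of dim probe sets is unknown. The number of arrays limits precision.

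Here log2 of the deposited intensities was taken (the 1 value of 0 set to the smallest positive value), quantile normalization followed, and a floor was set at the 10th percentile, an intensity of 15.8. Of 45101 probe sets, 64 controls were left out, and the upper 60% by mean, 27022, were tested with limma 3.58.1 in R 4.3.3 (lmFit, eBayes with trend), smoke minus control, two-sided, with Benjamini-Hochberg adjustment over them and a threshold of 0.05. For each of 13382 genes, the brightest tested probe set that carried that symbol alone was used. Of the non-control probe sets 34945 carried 1 symbol, 932 several and 9160 none; 2 probe sets shared by Myh7 and Myh6 were left out. Of the 17 member probe sets 14 passed the filter, with at least 1 for every gene, and the other 3 had an exact permutation test over the 210 splits, where 0.00476 is the smallest p possible. Correlations had 100000 permutations, or all orders up to 8 arrays, adjusted within each family (SciPy 1.17.1, NumPy 2.4.6). Plots used matplotlib 3.10.9 in Python 3.11.15.

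All 10 members were named, with up to 3 markers of the highest mean per list and the 10 genes most like the members' mean. Gja5, Bmp10, Myl1, Myl2, Irx4, Art1, Ankrd1, Acta1 and Tnnc2 were named after their values were seen, as were Nr2f2, Kcnj3, Nppb, Myh11 and Des. The members and the 18 lists were chosen with earlier results of these data known. Promoters were matched by symbol to a RefSeq table of GRCm38.p6 for 9 of 10 members; Sln has no sequence shown.

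On data simulated from the 27022 tested probe sets, the fit recovered 68% of 50 probe sets lowered by a log2 change of 2 and 68% of 50 raised by 2, and 30% and 24% of those lowered and raised by 1, with 1 false call. The simulated noise was independent between probe sets. Variation shared by the probe sets of an array, as with RNA quality or skeletal muscle, was thus absent, and the rates may not hold for the real arrays. Pairs of arrays had r of 0.747 to 0.975 and 0 pairs were identical. The replicate numbers pair no arrays: deviations of same-numbered arrays from their group means had r of -0.07, 0.17, -0.06 and -0.05.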

Additional observations from a re-analysis of the deposited data

Results flagged for a closer look

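Of 32 groups examined for an array far from the rest of its group, 6 held one, where chance alone flags about 5% of single groups. Most of the flags came from smoke array 5 and control array 1, so the groups are not independent. The count carries no test against that share. The groups were the smoke and the control arrays, taken for each of the 10 cardiac muscle genes singly and for 6 marker list sums. Every array found was in a marker list sum. The values are log2 of summed intensity. Smoke array 5 stood above the other smoke arrays in the skeletal muscle list at 15.35 and in the oesophagus list at 13.99, and control array 1 stood above the other controls in the same lists at 14.04 and 13.71. Smoke array 5 was also far above the other smoke arrays in the cardiac metabolic list, at 14.07, in which Ckm and Mb, both also expressed in skeletal muscle, were at 12.05 and 12.10. Control array 3 lay below the other controls in the smooth muscle list, at 13.30. Neither group held such an array for any of the 10 cardiac muscle genes, and the sum of these genes was not examined.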

How the results depend on the processing

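In 22 of the 25 other settings 0 cardiac muscle genes passed (limma), as also in each single omission of an array (0 to 0). The replicate block over arrays 1 to 4 of each group gave 3, Myh6 at -1.55, Sln at -2.92 and Tnni3 at -1.41 (limma, adjusted p = 0.0116, 0.0360 and 0.0370), and it leaves out smoke arrays 5 and 6. Leaving these out with no block gave 2, Myh6 and Sln, and the log2 actin ratio as a covariate gave 1, Myh6. In the block setting 5.90% of all genes passed. The median of the 10 genes ran from -0.42 to 0.02 over single omissions, and was -0.61 without smoke arrays 5 and 6. Differences close to 0 changed sign, all without passing (limma, adjusted p of 0.783 to 0.999), and the cause was not tested. Myl4 was at 0.013 as deposited, 0.15 with array weights, 0.083 with Xist and 0.069 with the actin ratio as a covariate, 0.14 without smoke arrays 1 and 2, and -0.26 to 0.16 over single omissions. Pln was at -0.0075 with array weights, -0.14 in the replicate block and without smoke arrays 5 and 6, -0.064 without smoke arrays 1 and 2, -0.30 without control array 1 and smoke array 5, and -0.18 to 0.24 over single omissions. Tnnt2 was at 0.21 with array weights, 0.27 without smoke arrays 1 and 2 and -0.59 to 0.043 over single omissions, and Mybpc3 at -0.083, -0.092 and -0.039 to 0.22 in the same settings. Actc1 was at -0.13 in the replicate block and without smoke arrays 5 and 6, and Nppa at -0.0022 without control array 1 and smoke array 5. Myh6, Myl7, Tnni3 and Sln were below 0 in every setting run that tested them, but their size moved: with array weights Myl7 was at -0.11, Tnni3 at -0.11 and Sln at -0.84, without smoke arrays 1 and 2 Myl7 was at -0.16 and Tnni3 at -0.11, and without smoke arrays 5 and 6 they were at -1.45 and -1.41. Actc1 was at 0.60 with array weights and 0.11 without control array 1 and smoke array 5. Of the 9 relations to Myl7, 1 passed by Pearson's r within smoke arrays and 8 with group means subtracted, against 5. Without control array 1 and smoke array 5, 2 passed, as did 2 in residuals from the actin ratio. By rank the counts were 0, 4, 4 and 2 in the same order, against 4. The setting without control array 1 and smoke array 5, the residuals and the setting without smoke arrays 1 and 2 were chosen after seeing the data. The r of Mybpc3 was 0.0087 without smoke arrays 1 and 2 and 0.58 in the residuals. The small number of arrays, unknown litter, sex read only through Xist, uneven RNA quality and the absence of detection calls limit all values. A gene with 1 probe set rests on that probe set alone.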
